A study of Mus musculus with 14 samples.

Results

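Rhox5 and Trap1a are X-linked mouse genes that are normally read in testis and placenta, and their RNA signal was measured in bone marrow stem and progenitor cells after deletion of Dnmt1. The members were all probe sets of the deposited table that the platform annotation assigns to either symbol. They gave 2 of the 12393 genes of the table and 2 of its 22690 probe sets, namely 1423429_at for Rhox5 (Entrez Gene 18617) and 1460226_at for Trap1a (Entrez Gene 22037), both on the X chromosome. Both genes had been picked because their knockout signal exceeded the control signal in an earlier analysis of the same 14 arrays. Their knockout and control values are therefore given as a description, without a test.

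Rhox5 encodes a homeodomain protein of the reproductive homeobox cluster, best known from Sertoli cells, epididymis, placenta and early embryos. Trap1a encodes a tumour rejection antigen, first found as a target of cytotoxic T cells on a mouse mastocytoma, and healthy tissues other than testis and placenta are known to keep it silent. Dnmt1 copies the methylation of CpG dinucleotides onto the new strand when DNA is replicated. Promoters of many germline genes are methylated in somatic cells, and loss of that methylation is known to be followed by transcription of some of them, Rhox5 and Trap1a among those described.

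The knockout samples came from Dnmt1fl/fl Mx-Cre mice, in which poly(I)poly(C) induces the Cre recombinase from the interferon-responsive Mx promoter. The controls were Dnmt1fl/fl littermates without Mx-Cre. All mice were on a C57BL/6 background, were 8 to 12 weeks old and were given poly(I)poly(C) at 25 ug/kg in 7 doses, with marrow collected on day 4 after the last dose. Each sample pooled 4 to 6 mice of the same genotype, so that n counts pools. Lineage-depleted, c-Kit+ cells were sorted by Sca-1 and CD34. Those with Sca-1 and no CD34 are called long-term hematopoietic stem cells (LT-HSCs), those with both are called multipotent progenitors (MPPs), and those without Sca-1 are called myeloid progenitors. The LT-HSC and MPP sets had 2 knockout and 2 control arrays, and myeloid progenitors had 3 and 3, in 7 littermate pairs. Since the controls lacked Mx-Cre, loss of Dnmt1 and the presence of Cre cannot be told apart. Sorted cells were measured in bulk, so a higher signal from more cells with the RNA and one from more RNA per cell cannot be told apart.

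Array medians lay between 41.1 and 49.1 intensity units, and arrays of the same group correlated with r of 0.940 to 0.988 over probe sets. Markers of the sorted cells were present. Mpo, a granule enzyme of myeloid progenitors, read 173.4 to 6755 units in knockout pools and 170.4 to 6618 in control pools. Kit read 177.9 to 523.5 in knockout pools and 226.9 to 883.1 in control pools, and was higher in the knockout in 0 of 7 pairs. Of the 8 tested markers 2 had a positive average log2 difference in the limma fit and 0 passed. The lowest was Flt3 (-0.79 ± 0.38, adjusted p = 0.844). Dnmt1 (1422946_a_at) read 1170 and 1305 in knockout LT-HSCs, 1141 and 745 in knockout MPPs, and 1055, 1084 and 1193 in knockout myeloid progenitors, against 1328 to 2219 on the 7 control arrays. In deposited intensity the knockout arrays thus all lay below the control arrays for this probe set, by a narrow margin. After the normalization used for the fit they overlapped, with knockout LT-HSC pool 1 at 10.45 and control myeloid pool 1 at 10.36 on the log2 scale. On that scale 2 of 8608 genes (0.0232%) had all knockout arrays below all control arrays. Its average difference in the limma fit of all genes was -0.63 ± 0.14 on the log2 scale (SE), and the adjusted p of 0.193 missed the threshold of 0.05 but was 0.0371 when littermate pairs entered as blocks. The other Dnmt1 probe set, 1435122_x_at, read 501.2 to 870.1 on knockout arrays and 1228 to 2107 on control arrays. Which segment of Dnmt1 was excised is not given in the labels, so these probe sets check the genotype only in part. The array of knockout myeloid pool 1 was low for the genes that rose. It was the lowest of the 3 knockout myeloid arrays for both members and for 17 of the 18 other genes that rose on average, and the lowest of all 7 knockout arrays for 10 of these 18. How often it was the lowest over all genes was not counted. These counts thus do not tell a generally low array from low signal of these genes. For Dnmt1 the probe sets differed. Pool 1 was the lowest of the 3 by 1422946_a_at (1055), and the highest of the 3 by 1435122_x_at (811.9, against 802.5 and 775.5). The values that the array of pool 1 moved most are given with and without it.

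The promoter windows of both genes are shown because the study removed the enzyme that maintains methylation at CpG dinucleotides, which are in capitals. They come from RefSeq on build GRCm38.p6 and run from 250 bases before to 50 bases after the annotated start, 5′ to 3′ on the plus strand. The Rhox5 window is chrX:37754358-37754657 and the Trap1a window is chrX:139333433-139333732.
Rhox5: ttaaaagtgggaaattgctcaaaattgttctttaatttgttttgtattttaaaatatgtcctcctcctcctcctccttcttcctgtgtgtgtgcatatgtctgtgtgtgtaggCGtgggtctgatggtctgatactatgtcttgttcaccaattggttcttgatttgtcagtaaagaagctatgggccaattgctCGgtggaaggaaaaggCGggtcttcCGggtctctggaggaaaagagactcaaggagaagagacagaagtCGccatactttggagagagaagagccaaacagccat
Trap1a: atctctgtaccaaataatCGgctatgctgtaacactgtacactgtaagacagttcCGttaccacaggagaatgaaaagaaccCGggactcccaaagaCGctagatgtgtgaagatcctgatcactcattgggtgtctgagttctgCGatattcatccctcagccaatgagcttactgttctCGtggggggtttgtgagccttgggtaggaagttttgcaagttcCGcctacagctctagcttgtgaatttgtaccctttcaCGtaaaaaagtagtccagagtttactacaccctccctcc

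The Rhox5 window held 5 CpG dinucleotides, between positions -137 and 15 relative to the start, and 4 of them preceded the start. The Trap1a window held 8, between -232 and 12, of which 7 preceded the start. Among 32817 mouse promoter windows of the same length the median was 7, with quartiles of 3 and 20, and 43.6% of windows had no more CpG than Rhox5 and 54.2% no more than Trap1a. Over the 1220 windows of the X chromosome these shares were 45.1% and 57.1%. CpG frequency relative to base composition (observed over expected) was 0.36 for Rhox5 and 0.49 for Trap1a, against a median of 0.38 over all windows, and GC content was 43.7% and 46.7%, against a median of 52.7%. Both windows were thus near the middle of mouse promoters in CpG number and below the median in GC content. Methylation itself was not measured on these arrays.

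**Figure D1:**
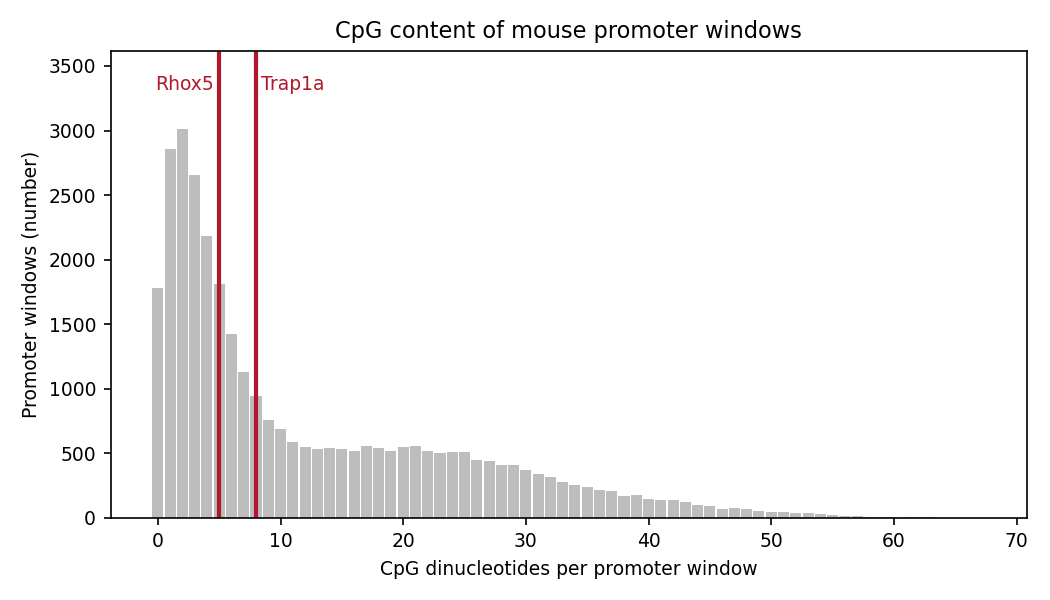
Number of RefSeq promoter windows (y axis) by the number of CpG dinucleotides they hold (x axis), for 32817 mouse windows of equal length. The lines mark Rhox5 at 5 and Trap1a at 8, on either side of the median of 7.

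Motifs were looked up in these windows on both strands, after the sequences had been read. The CCAAT box (CCAAT) occurred 3 times in the Rhox5 window and 2 times in the Trap1a window, and 37.4% of all windows hold it. Of the 3 Rhox5 matches, 2 overlap on opposite strands of the same stretch. The GC box (GGCGGG), a site of the Sp factors, occurred 1 time in the Rhox5 window and 0 times in the Trap1a window (35.3% of windows). The ETS core (CCGGAA) likewise occurred 1 time and 0 times (14.9% of windows), where ETS factors are described as activators of the Rhox5 promoter that is used in placenta and many tumours. The E-box CACGTG (7.1% of windows) and the E2F core TTCCCGC (4.6%) were in neither. The GC box and ETS motif matches do not overlap each other. Of the 20 genes that rose on average, 17 had a window, with 2 to 47 CpG dinucleotides and a median of 12.

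Rhox5 signal was high on knockout arrays of each population and near the bottom of the scale on control arrays. It read 213.6 and 228.0 in knockout LT-HSCs, against 1.48 and 1.75 in control LT-HSCs. In MPPs it read 328.9 and 337.6 in knockout pools, against 7.39 and 1.77 in control pools. In myeloid progenitors it read 22.95, 198.9 and 147.4 in knockout pools, against 1.00, 3.55 and 1.00 in control pools. The lowest knockout array, myeloid pool 1, still lay above the highest control array, and the genotypes did not overlap in any population. Mean Rhox5 intensity was 211 ± 108 over the 7 knockout arrays and 2.56 ± 2.30 over the 7 control arrays (SD). In terms of rank within its array, Rhox5 lay between percentiles 41.7 and 82.8 (median 75.9) on knockout arrays and between 0.562 and 17.7 (median 3.50) on control arrays.

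Trap1a showed the same separation. It read 237.8 and 443.8 in knockout LT-HSCs, against 2.05 and 3.31 in control LT-HSCs. In MPPs it read 187.4 and 1201 in knockout pools, against 5.46 and 3.07 in control pools. In myeloid progenitors it read 142.2, 814.2 and 798.6 in knockout pools, against 8.76, 3.59 and 6.10 in control pools. MPP pool 2 was the highest and myeloid pool 1 the lowest of the knockout arrays, and again the genotypes did not overlap in any population. Mean Trap1a intensity was 546 ± 400 over the 7 knockout arrays and 4.62 ± 2.30 over the 7 control arrays (SD). Trap1a lay between percentiles 70.0 and 94.8 (median 85.6) on knockout arrays and between 3.79 and 29.0 (median 10.5) on control arrays.

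**Figure D2:**
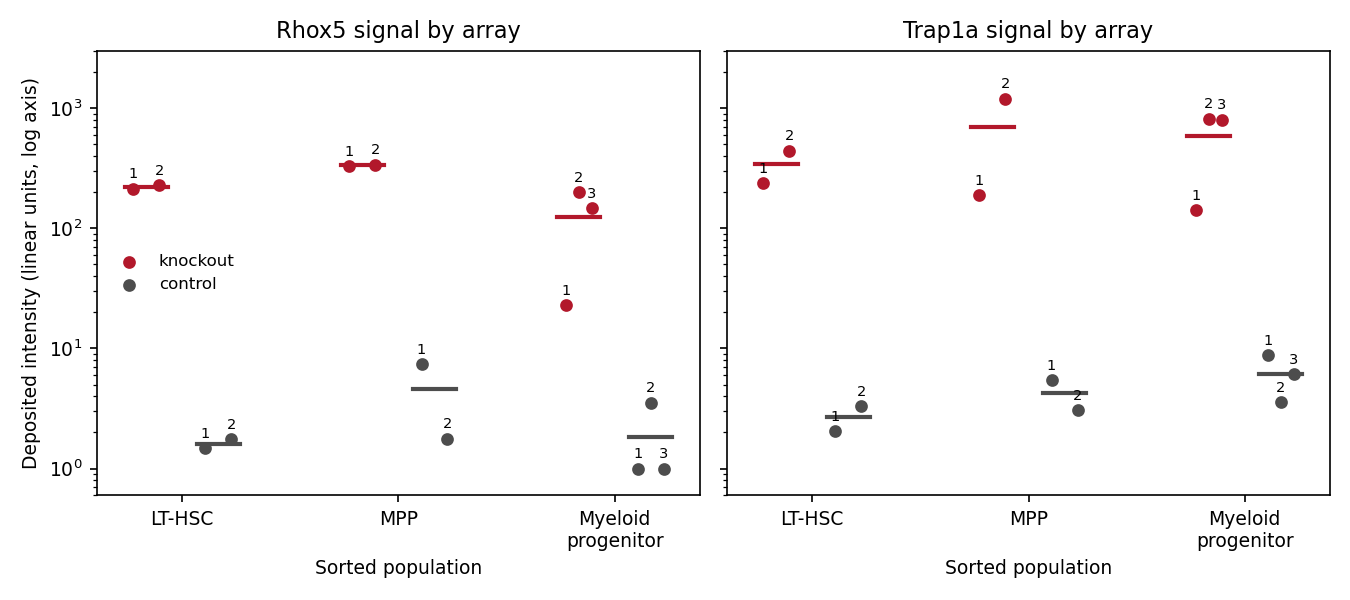
Deposited intensity (log axis) of Rhox5 and Trap1a by sorted population, with knockout arrays left of control arrays, pool numbers beside the points and bars at the arithmetic mean of each group. All 7 knockout arrays lie above all 7 control arrays for both genes, and knockout myeloid pool 1, at 22.95 for Rhox5 and 142.2 for Trap1a, is the lowest knockout array of each.

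Of the 8608 genes kept by the filter on dim probe sets, 22 (0.256%) had all knockout arrays above all control arrays, and both members were among them. Such a separation within a population was far more common. It occurred in 13.0% of genes for LT-HSCs, 12.1% for MPPs and 2.80% for myeloid progenitors. The members had been chosen on this contrast, so nothing is read from their being among these genes. The filter asked for a signal above the 40th percentile of the array on at least 2 arrays. Each member exceeded that percentile on 7 arrays, all of them knockout arrays, so that both genes were kept only through the knockout. Control values of 1.00 to 8.76 units lay below the 40th percentile of every array (19.8 to 26.9 units), and the files hold no detection calls. A linear fold over such values would rest on the bottom of the scale and is not given.

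Differences between genotypes are knockout minus control on the scale of log2(intensity + 16) after quantile normalization, which understates changes of genes with low signal. Rhox5 differed by 3.78 ± 0.54 for LT-HSCs, 4.17 ± 0.54 for MPPs and 2.67 ± 0.44 for myeloid progenitors (SE of the limma fit, n = 2, 2 and 3 pools per genotype), and by 3.54 ± 0.30 on average over the 3 populations. Trap1a differed by 4.22 ± 0.76, 4.63 ± 0.76 and 4.41 ± 0.62 in the same order, and by 4.42 ± 0.41 on average. Ordered from the highest average difference, Trap1a ranked 2 and Rhox5 ranked 4 of 8608 genes, with Tex19.1 at the top (5.03 ± 0.33) and Tex19.2 between them (4.06 ± 0.34). Tex19.1 and Tex19.2 are germline genes, and Tex19.1 protects against retrotransposons in mouse testis and placenta. In the same comparison 20 genes (0.232%) rose and 0 fell by limma at an adjusted p under 0.05, while 521 genes (6.05%) were below an unadjusted p of 0.05 in either direction. When littermate pairs, whose arrays deviate together, entered as blocks, 55 genes rose and 14 fell, and Dnmt1 was among those that fell. Taken alone, LT-HSCs had 6 called genes (0.0697%), MPPs 6 (0.0697%) and myeloid progenitors 8 (0.0929%), and as the contrast chose the members, nothing is read from these shares.

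**Figure D3:**
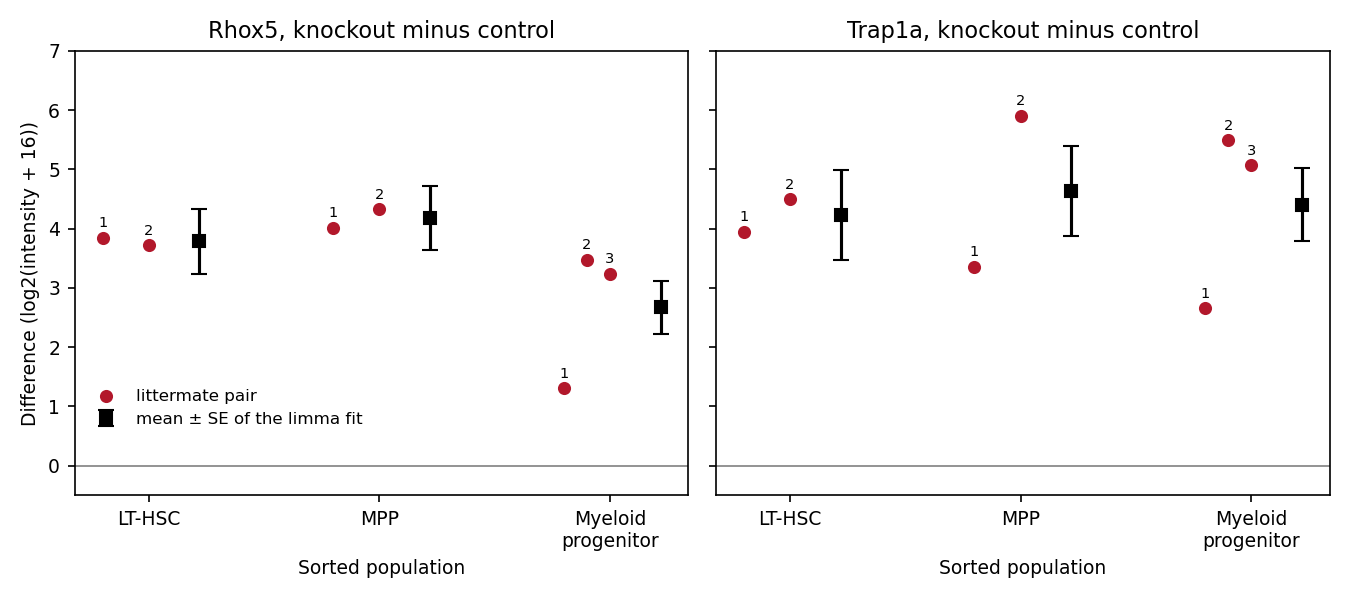
Knockout minus control, in units of log2(intensity + 16), for each littermate pair (points, numbered by pair) and the mean with SE of the limma fit (squares), by population. Rhox5 pairs lie between 1.31 and 4.33 and Trap1a pairs between 2.66 and 5.91, all above 0.

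Within littermate pairs the knockout value was higher in 7 of 7 pairs for each gene. Rhox5 pairs differed by 3.85 and 3.72 in LT-HSCs, 4.02 and 4.33 in MPPs, and 1.31, 3.48 and 3.24 in myeloid progenitors. Trap1a pairs differed by 3.95 and 4.50 in LT-HSCs, 3.36 and 5.91 in MPPs, and 2.66, 5.49 and 5.07 in myeloid progenitors. Pairs of the same population thus agreed closely for Rhox5 outside the myeloid progenitors, whereas Trap1a pairs were far apart in both MPPs and myeloid progenitors. The pooled SD of pair differences around their population means was 0.85 for Rhox5 and 1.42 for Trap1a (4 degrees of freedom). Without myeloid pair 1 it was 0.17 and 1.08 (3 degrees of freedom), so the Rhox5 value rested on that pair. Without knockout myeloid pool 1, the myeloid difference was 3.39 for Rhox5 and 5.16 for Trap1a, and the average was 3.79 and 4.84.

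How far the knockout effect depended on the population was tested with interaction terms, since the choice of the genes had not used it. For Rhox5, MPPs exceeded myeloid progenitors by 1.50 ± 0.70 (95% interval -0.01 to 3.01), LT-HSCs exceeded them by 1.11 ± 0.70 (-0.40 to 2.62), and LT-HSCs minus MPPs was -0.39 ± 0.77 (-2.04 to 1.26). The limma adjusted p-values were 1, 1 and 0.999, so that a difference between populations was not shown, and the intervals leave room for differences of more than 1 log2 unit. The unadjusted p of the largest of these, MPPs against myeloid progenitors, was 0.0511, and the value was 0.79 without knockout myeloid pool 1. Without that pool LT-HSCs minus myeloid progenitors was 0.40. For Trap1a the differences were 0.23 ± 0.98 for MPPs minus myeloid progenitors (-1.88 to 2.33), -0.18 ± 0.98 for LT-HSCs minus myeloid progenitors (-2.29 to 1.93) and -0.41 ± 1.07 for LT-HSCs minus MPPs (-2.72 to 1.90). Their adjusted p-values were 1, 1 and 0.999, and without knockout myeloid pool 1 the comparisons with myeloid progenitors gave -0.53 for MPPs and -0.93 for LT-HSCs. Each of the 3 interactions had 0 called genes (0.00%) by limma, with 42, 229 and 260 genes below an unadjusted p of 0.05 in the same order.

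Levels among the knockout pools ordered the populations in the same way as the differences from controls. Mean Rhox5 intensity was 333 ± 6.12 in knockout MPPs, 221 ± 10.2 in knockout LT-HSCs and 123 ± 90.5 in knockout myeloid progenitors (SD). The knockout MPP arrays lay above the LT-HSC arrays, and those above the myeloid arrays, whose highest value was 198.9. Such separation was common, at 15.5% of all genes for knockout MPPs above LT-HSCs and 19.9% for knockout LT-HSCs above myeloid progenitors, so the order is a description. Without myeloid pool 1 the knockout myeloid mean of Rhox5 was 173 ± 36.4 (SD, n = 2). Mean Trap1a intensity was 694 ± 716 in knockout MPPs, 585 ± 384 in knockout myeloid progenitors and 341 ± 146 in knockout LT-HSCs (SD), and the ranges of all 3 populations overlapped. Without myeloid pool 1 the knockout myeloid mean of Trap1a was 806 ± 11.1 (SD, n = 2), above that of the MPPs. The highest knockout array exceeded the lowest by 14.7-fold for Rhox5 and 8.45-fold for Trap1a, and by 2.29-fold and 6.41-fold without myeloid pool 1.

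Across the 7 knockout arrays the signals of the genes were related to each other and to Dnmt1, in 3 relations tested by exact permutation and adjusted together. The permutation exchanged arrays freely across the 3 populations. Its p-values, and r over these arrays, therefore mix differences between populations with differences between pools. Rhox5 and Trap1a had a Pearson r of 0.44 (exact two-sided p = 0.362, adjusted 0.542) and a Spearman rho of 0.32 (exact p = 0.498, adjusted 0.746). Without MPP pool 2 and myeloid pool 1, the arrays farthest from the median of Rhox5, r was -0.87 over 5 arrays, and without myeloid pool 1 alone it was -0.24. The positive sign of r over all 7 arrays, populations not separated, therefore rested on myeloid pool 1, which was low for both genes. Taken as deviations from the mean of each population, the genes had r of 0.71, and 0.34 without myeloid pools 1 and 2. These are given without a test, since the deviations of 2 pools mirror each other.

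**Figure D4:**
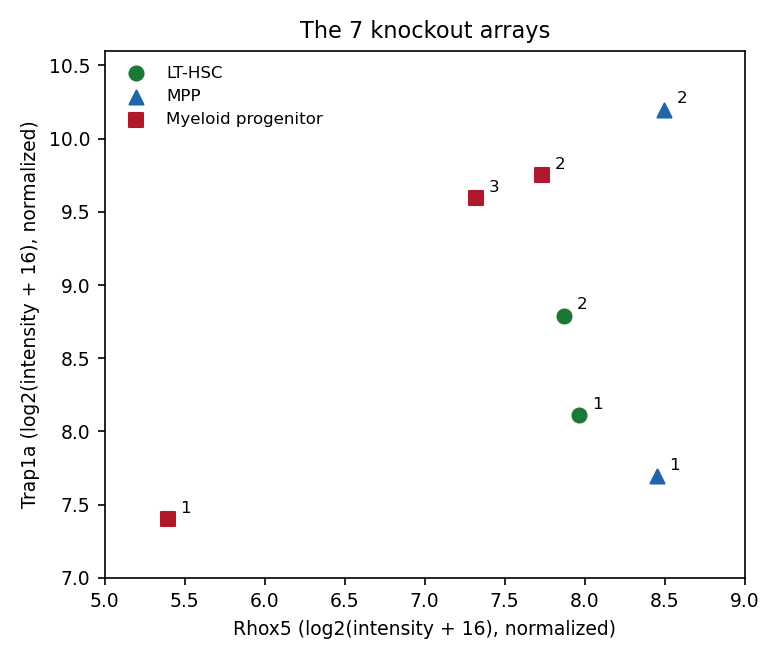
Normalized Trap1a against Rhox5 signal, both as log2(intensity + 16), on the 7 knockout arrays, marked by population and pool number. Myeloid pool 1 sits alone at low Rhox5, and the remaining 6 arrays, which span 7.70 to 10.20 for Trap1a, have an r of -0.24.

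A relation of the remaining Dnmt1 signal, read from 1422946_a_at, with either gene was not shown over these arrays. The other Dnmt1 probe set, 1435122_x_at, was not used for these relations. Dnmt1 and Rhox5 had r of -0.14 (exact p = 0.835, adjusted 0.835) and rho of 0.14 (exact p = 0.783, adjusted 0.783), and r was 0.42 without LT-HSC pool 1 and MPP pool 2. Dnmt1 and Trap1a had r of -0.54 (exact p = 0.212, adjusted 0.542) and rho of -0.32 (exact p = 0.498, adjusted 0.746), and r was 0.12 without the same pools. MPP pool 2 had the lowest Dnmt1 signal of the knockout arrays, 745 units, and the highest Trap1a signal, 1201 units.

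The genes whose signal was most like each member over all 14 arrays were named by Pearson r. These values mostly reflect the separation of knockout from control arrays and are given without a p. For Rhox5 they were Tex19.1 (r = 0.948), Tex19.2 (0.941), H2-Bl (0.936), Trap1a (0.930) and Mnd1 (0.906). Mnd1 is a partner of the meiotic recombinases. For Trap1a they were Tex19.1 (0.972), Ipp (0.966), Tex19.2 (0.965), Noct (0.959) and Dpep3 (0.957), and Rhox5 came 11th. Ipp is named for its transcription from an intracisternal A particle promoter in placenta, Noct encodes nocturnin, a circadian phosphatase of dinucleotide cofactors, and Dpep3 a dipeptidase of testis germ cells. Within the 7 knockout arrays alone the r with Rhox5 was 0.556 for Tex19.1, 0.863 for H2-Bl and 0.392 for Mnd1, and the r with Trap1a was 0.679 for Tex19.1, 0.880 for Ipp, 0.808 for Noct and 0.856 for Dpep3.

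Among the rest of the Rhox cluster, 2 of 31 listed genes had a probe set, so that most of the cluster was not measured here. Rhox6, a homeobox gene of placenta and germ cells, read 5.61 to 28.64 in knockout pools (median 8.62), against 5.33 to 51.59 in control pools (median 14.42). Its average difference was -0.24 ± 0.22 (limma adjusted p = 1), and it was higher in the knockout in 2 of 7 pairs. Rhox9 read 5.70 to 12.37 in knockout pools (median 8.44), against 5.10 to 12.23 in control pools (median 8.57), and did not pass the filter. The knockout and control values of both genes overlapped. Those of Rhox5, which had been chosen on this contrast, did not.

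The nearest measured genes on both sides of Rhox5, 10 on each side, gave 18 tested genes, of which 0 rose and 0 fell. Their median average difference was -0.02, with a range of -0.45 to 0.32, against a median of -0.01 over all 8608 genes. The smallest p-values belonged to Lamp2, a lysosomal membrane protein (-0.33 ± 0.11, adjusted p = 0.556), C1galt1c1, the chaperone of an O-glycan transferase (-0.45 ± 0.19, adjusted p = 0.768), Septin6, a cytoskeletal GTPase (-0.37 ± 0.17, adjusted p = 0.825), and Pgrmc1, a heme-binding membrane protein (0.32 ± 0.16, adjusted p = 0.844). Around Trap1a, 11 of 20 such genes were tested and 0 passed, with a median of -0.04 and a range of -0.54 to 1.28. They included Tsc22d3, a glucocorticoid-induced regulator (-0.54 ± 0.16, adjusted p = 0.390), Rnf128, a ubiquitin ligase of T cells (0.49 ± 0.20, adjusted p = 0.746), Morc4 (0.39 ± 0.22, adjusted p = 0.881) and the testis gene Tex13b.

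Tex13b was the neighbour with the largest difference. Its probe set 1450555_at read 126.3 and 32.06 in knockout LT-HSCs, against 31.10 and 24.80 in control LT-HSCs. It read 52.01 and 103.9 in knockout MPPs, against 21.67 and 26.53 in control MPPs. It read 31.82, 192.3 and 100.4 in knockout myeloid progenitors, against 3.46, 42.83 and 14.88 in control myeloid progenitors. The knockout value was higher in 7 of 7 pairs, but the genotypes overlapped in myeloid progenitors, where knockout pool 1 lay below control pool 2. The average difference of 1.28 ± 0.36 did not pass (limma adjusted p = 0.349), and it passed with littermate pairs as a block (adjusted p = 0.0124). The other probe set of Tex13b, 1432159_a_at, read 10.40 to 95.40 in knockout pools and 5.43 to 31.37 in control pools.

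X-linked genes of testis and placenta other than the Rhox cluster were listed as a group of 65, of which 22 had a probe set and 5 were tested. By limma 0 of the 5 rose or fell, their median difference was 0.48, and 3 had a higher knockout signal with unadjusted p below 0.05, as had 3.19% of all genes. Besides Tex13b these included Nxf2, an RNA export factor of germ cells, which read 6.18 to 35.50 in knockout pools and 3.37 to 10.25 in control pools (0.62 ± 0.23, adjusted p = 0.626). Taf7l, a germ cell subunit of the general transcription machinery, read 4.39 to 39.96 in knockout pools and 2.32 to 15.55 in control pools (0.48 ± 0.22, adjusted p = 0.799). Tktl1, a transketolase-like enzyme, differed by 0.39 ± 0.24 (adjusted p = 0.931). Control values of Nxf2, Taf7l and Tktl1 reached at most 10.25, 15.55 and 15.73 units, below the 40th percentile of every array (19.8 to 26.9 units). The filter thus kept these 3 genes only through their knockout arrays. Neither the median of the 5 nor the count at an unadjusted p therefore describes the list.

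Over all other X-linked genes, 254 of 400 measured genes were tested and 1 rose, 4930550L24Rik. The median of the 254 was -0.05, with 9 genes higher and 10 lower at an unadjusted p under 0.05, against 3.19% and 2.86% of all genes. 4930550L24Rik read 23.62 and 14.88 in knockout LT-HSCs, against 4.05 and 3.40 in control LT-HSCs. It read 20.46 and 44.58 in knockout MPPs, against 2.93 and 4.17 in control MPPs. It read 16.78, 53.97 and 54.46 in knockout myeloid progenitors, against 3.60, 5.19 and 3.07 in control myeloid progenitors. All knockout arrays lay above all control arrays. The gene exceeded the 40th percentile on 4 knockout arrays and 0 control arrays, so it was kept only through the knockout, and with the filter on 7 arrays it was not tested. The difference was 1.15 ± 0.20 (limma adjusted p = 0.0300), and leaving out 1 array moved the adjusted p between 0.00662 and 0.138, with the call kept in 4 of 14 fits. Mtm1, a phosphoinositide phosphatase, had the next smallest p (0.56 ± 0.11, adjusted p = 0.0554, and 0.0109 with littermate pairs as a block).

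**Figure D5:**
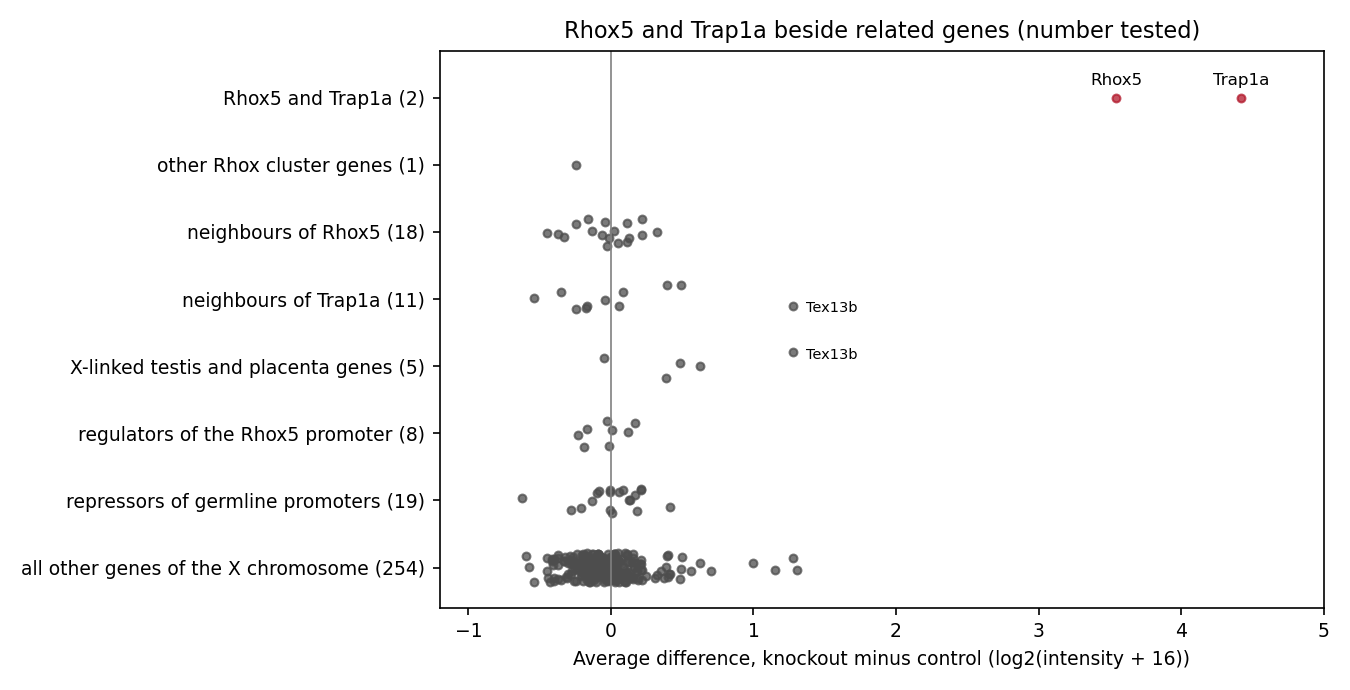
Average of knockout minus control in units of log2(intensity + 16) (x axis) for Rhox5 and Trap1a and for the tested genes of each list (rows, number tested in brackets). Points are genes. Rhox5 at 3.54 and Trap1a at 4.42 lie beyond every gene of the lists shown, whose highest is 1.31 among the X-linked genes. Both members had been chosen on this contrast, so nothing is read from their place.

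Genes that act on these promoters, or below Rhox5, were counted in the same fit. Of 8 tested regulators of the Rhox5 promoter 0 rose or fell, with a median of -0.02 and a range of -0.23 to 0.17. The ETS factors Ets1, Ets2, Elf1 and Gabpa differed by 0.01 ± 0.35, -0.03 ± 0.34, -0.19 ± 0.17 and 0.12 ± 0.13, and Sp1 and Sp3, which bind GC boxes, by -0.01 ± 0.13 and -0.16 ± 0.17. Gabpa read 373.1 to 613.3 in knockout pools and 370.4 to 565.0 in control pools, whereas Ets2 reached down to 8.46 in knockout pools and 9.94 in control pools, below the 40th percentile. Of 6 genes reported as Rhox5 targets in mouse, only Pparg, the adipocyte nuclear receptor, was tested, at -0.19 ± 0.25 (adjusted p = 1). Unc5c, Ins2, Adipoq, Retn and Ppargc1a did not pass the filter on dim signals.

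Among 19 tested repressors of germline promoters, the limma fit called 0 genes, and the median was 0.01 with a range of -0.63 to 0.42. The low end was Dnmt1 and the high end Morc1, which is needed to silence transposons in the male germline (0.42 ± 0.17, adjusted p = 0.739). Kdm1a, a histone demethylase, was at -0.28 ± 0.13 (adjusted p = 0.844) and lower in the knockout in 7 of 7 pairs. Dnmt3a and Dnmt3b, which set new methylation, were at -0.21 ± 0.16 (adjusted p = 0.995) and 0.21 ± 0.19 (adjusted p = 1). Uhrf1, which recruits Dnmt1, was at 0.13 ± 0.17 (adjusted p = 1).

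Both members are X-linked and are known from testis and placenta, so signs of pool sex and of those tissues were read as well. Xist, the RNA of the inactive X chromosome, read 1200 to 2487 in knockout pools and 923.3 to 2756 in control pools (0.02 ± 0.19, adjusted p = 1). The Y-linked genes Eif2s3y, Kdm5d and Uty differed by 0.41 ± 0.23, 0.02 ± 0.37 and 0.12 ± 0.19 (adjusted p = 0.876, 1 and 1). Xist and Y-linked signal were thus present on arrays of both genotypes, and 0 of 4 tested sex-linked genes passed. All 8 Sertoli cell markers stayed below the 40th percentile on every array, with summed signal of 23.5 to 74.3 in knockout pools and 34.5 to 76.7 in control pools. Of 4 measured trophoblast markers 2 never exceeded it, and their sums were 15.9 to 98.2 in knockout pools and 28.3 to 86.1 in control pools. Of 8 markers of pluripotent cells 5 never exceeded it, and their sums were 46.1 to 84.3 in knockout pools and 39.95 to 107 in control pools.

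Markers of other blood cells had overlapping sums in both genotypes. The sums run over all 3 populations, so their overlap says little about genotype within a population. The 8 T and NK cell markers summed to 542 to 969 in knockout pools and 417 to 1004 in control pools, and the 5 measured erythroid markers to 488 to 1163 in knockout pools and 219 to 1081 in control pools. The 7 measured B cell markers summed to 132 to 9441 in knockout pools and 265 to 12229 in control pools, and the 6 granulocyte markers to 163 to 11973 in knockout pools and 522 to 11465 in control pools. In the limma fit 0 genes of these lists passed on average. The 4 tested erythroid genes all had positive average differences, with a median of 0.91, and 3 of them had an unadjusted p below 0.05, as had 3.19% of all genes in that direction. Slc4a1 (0.85 ± 0.17, limma adjusted p = 0.0855) and Epor (1.12 ± 0.25, adjusted p = 0.193) had the smallest p. The erythroid median was 1.06 for LT-HSCs, 1.40 for MPPs and 0.33 for myeloid progenitors. The 7 tested T and NK cell genes were also all positive on average, with a median of 0.35 and 2 higher at an unadjusted p below 0.05, led by Thy1, a surface protein of T cells (0.75 ± 0.23, adjusted p = 0.448). Their median was 0.58 for LT-HSCs, 0.14 for MPPs and -0.00079 for myeloid progenitors. The B cell median was -0.45 for LT-HSCs, 0.68 for MPPs, where 6 of 7 tested genes were positive, and 0.14 for myeloid progenitors. The granulocyte median was 0.49 for LT-HSCs, -0.29 for MPPs and -1.14 for myeloid progenitors, where 0 of 5 tested genes were positive. The part of these cells in the results was not tested. The signal of the 3′ end of Gapdh over its 5′ end is higher in less intact RNA. On the array of knockout myeloid pool 1 it was 2.33, against 4.35 and 2.36 on the other knockout myeloid arrays. The littermate control of pool 1 had a Gapdh ratio of 5.27, and the 14 arrays ran from 2.25 to 5.44. The same ratio for Actb was 1.13 on the array of knockout myeloid pool 1, against 1.02 and 1.04 on the other knockout myeloid arrays. What part RNA quality has in the low Rhox5 and Trap1a signal of that array was not tested.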

How the data were processed

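Members and gene lists were chosen with earlier results of these data known. The authors deposited a table of linear intensity, judged from its range of 0.73 to 19239, in which 0.948% of entries are exactly 1. Their summarisation, background correction and scaling, and a genome build, are not given in the sources used here. RNA was amplified with a NuGEN WT-Ovation Pico kit and biotin labelled, per the labels' protocols. The platform annotation gave 20380 of 22690 probe sets 1 symbol, 691 several and 1555 none, and 64 were controls, which were dropped. Values were taken as log2(intensity + 16) and quantile normalized over 14 arrays. Probe sets above the 40th percentile of the array on at least 2 arrays were kept, and the brightest per gene left 8608 of 12393 genes. The limma fit (limma 3.58.1, R 4.3.3) had 6 group means, a mean-variance trend and 8 residual degrees of freedom (median prior 5.40), with two-sided tests and Benjamini-Hochberg adjustment over all genes at 0.05. Preparation, permutation tests and figures used Python 3.11.15, numpy 2.4.6, pandas 2.3.3, scipy 1.17.1 and matplotlib 3.10.9, and the fit and permutation code were tested on simulated data.

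Per the labels, each replicate's knockout and control came from littermates. Deviations of same-numbered arrays from group means correlated at r of 0.46 for LT-HSCs, 0.60 for MPPs and 0.20, 0.54 and 0.61 for myeloid progenitors. The genes named were both members, Dnmt1, the sex-linked genes, per list those past the threshold or else up to 4 with the smallest p, and per member the 5 with the highest r. Further genes, such as the promoter regulators and Dnmt3a, Dnmt3b and Uhrf1, were named for their roles after their values were seen. Arrays give no depth, and their number limits the precision.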

Additional observations from a re-analysis of the deposited data

How the results depend on the processing

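With 2 or 3 pools per group, Rhox5 and Trap1a stayed higher in the knockout in every population under all alternatives, and the size of the difference depended on the pseudocount. With pseudocounts of 1 and 64, Rhox5 differed by 6.46 and 2.15 in LT-HSCs, 6.27 and 2.57 in MPPs, 5.18 and 1.37 in myeloid progenitors and 5.97 and 2.03 on average. Trap1a differed by 6.53 and 2.58, 6.60 and 3.04, 5.99 and 2.94, and 6.37 and 2.85 in the same order. With a pseudocount of 1, LT-HSCs minus MPPs was 0.19 for Rhox5 and LT-HSCs minus myeloid progenitors was 0.54 for Trap1a, so both changed sign.

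Leaving out 1 array at a time moved Rhox5 between 3.75 and 3.83 in LT-HSCs, 4.04 and 4.30 in MPPs, 2.22 and 3.39 in myeloid progenitors and 3.39 and 3.79 on average. Its population differences moved between -0.52 and -0.25 for LT-HSCs minus MPPs, 0.40 and 1.57 for LT-HSCs minus myeloid progenitors, and 0.79 and 1.96 for MPPs minus myeloid progenitors. Trap1a moved between 3.88 and 4.58, 3.38 and 5.88, 3.99 and 5.16, and 4.00 and 4.84. Its population differences changed sign. They moved between -1.66 and 0.84 for LT-HSCs minus MPPs (0.84 without knockout MPP pool 2) and between -0.93 and 0.24 for LT-HSCs minus myeloid progenitors (0.16 without knockout LT-HSC pool 1, 0.24 without knockout myeloid pool 2 and 0.16 without pool 3). MPPs minus myeloid progenitors moved between -1.02 and 1.47, at -1.02 without knockout MPP pool 2 and -0.53 without knockout myeloid pool 1. Over the knockout arrays, r moved between -0.24 and 0.71 for Rhox5 with Trap1a, -0.46 and 0.44 for Dnmt1 with Rhox5 (0.44 without MPP pool 2, and 0.05 as deviations from population means), and -0.68 and -0.09 for Dnmt1 with Trap1a.

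Counts of called genes were 6 in LT-HSCs, 6 in MPPs, 8 in myeloid progenitors and 20 on average. With the replicate block of littermate pairs they were 20, 13, 13 and 69, and the block changed no direction or call of the population differences. Taking every probe set gave 12 in LT-HSCs, 22 in myeloid progenitors and 54 on average. The filter on 7 arrays gave 3 in LT-HSCs. In MPPs the count was 1 with a pseudocount of 64, 3 without further normalization, 3 without a filter and 2 without a trend, and in myeloid progenitors it was 0 with a pseudocount of 64. Leaving out 1 array gave 0 to 73 in LT-HSCs, 0 to 8 in MPPs, 1 to 13 in myeloid progenitors and 12 to 58 on average (58 without control LT-HSC pool 2, 41 without knockout LT-HSC pool 2, 13 without knockout LT-HSC pool 1 and 12 without control MPP pool 1). It gave 0 to 1 for LT-HSCs minus MPPs and for MPPs minus myeloid progenitors, 1 in each case without knockout MPP pool 2.

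In the gene lists, the block called 1 gene among X-linked testis and placenta genes and among neighbours of Trap1a (Tex13b in both) and 1 among repressors (Dnmt1, also 1 with every probe set, by its other probe set). Other X-linked genes had 1 call, 4 with the block, 2 with a pseudocount of 1, without further normalization, with median centring or with every probe set, 0 with a pseudocount of 64 or the filter on 7 arrays, and 0 to 4 when 1 array was left out. The causes of these shifts were not tested.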
